A study of Drosophila melanogaster with 31 samples.

Results

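The cuticle protein and Osiris genes of *Drosophila melanogaster* were taken from the Ensembl annotation by symbol, as protein-coding genes whose names start with Cpr, Twdl, Ccp84A, Lcp, Acp65A, Edg or Osi. There were 144 such genes among 13968 protein-coding genes, namely 70 Cpr, 23 Twdl, 25 Osi, 15 Lcp, 7 Ccp84A, 3 Edg and 1 Acp65A gene. The insect cuticle is a layer of chitin and protein that the epidermis and the trachea secrete. Most Cpr, Lcp, Ccp84A, Acp65A and Edg genes encode proteins with a chitin-binding domain of the Rebers and Riddiford type, and the Tweedle (Twdl) genes encode a second class of cuticle proteins. The Osiris genes encode an insect-specific family of membrane proteins found in cuticle-secreting cells, and most of them lie in 1 array on chromosome arm 3R. Grainy head (Grh) is a transcription factor of the epidermis that is known to activate genes of cuticle formation, so these genes are a natural place to ask when start sites open and whether this needs *grh*.

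Accessibility had been measured by ATAC-seq in 31 samples of 12 conditions, and 1 list of MACS2 peaks per condition was analysed. Single embryos at stage 5 (the cellularizing blastoderm) or stage 6 (gastrulation) lacked maternal Grh (grhM-), zygotic Grh (grhB37/B37) or both (grhM-Z-). They were compared with siblings labelled grhM+, grhB37/+ and grhM+Z+, and by their labels both the grhB37/+ and the grhM+Z+ embryos carry 1 copy of the null allele grhB37. The labels give no zygotic genotype for grhM+ and grhM-, and the study calls the grhM+ siblings heterozygous in one place and wild type in another. Maternal depletion was by germline clones, and zygotic mutants at 11-12 h after egg laying (AEL) were picked by the absence of a fluorescent balancer chromosome. Each early condition had 3 embryos, except grhM+Z+ at stage 6, which had 2. At 11-12 h AEL there was 1 sample of 7 pooled embryos each for grhB37/B37 and grhB37/+, sequenced as single-end reads without the size selection used for the early embryos. Age and library type therefore cannot be told apart, and neither 11-12 h AEL comparison has a replicate check. In these whole embryos, fewer open cells and less opening per cell cannot be told apart either. At stage 6 the study called the differences between grhB37/B37 and grhB37/+ false positives, since most lay on chromosome 2, which carries *grh*. It proposes that mutations on the balanced grhB37 chromosome kept reads from mapping. Whether this affects the other comparisons of genotypes was not tested here.

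The early lists held 31898 to 81187 peaks, whereas the list at 11-12 h AEL held 20540 in grhB37/+ and 10509 in grhB37/B37. A gene was called open where a peak summit lay within 1000 bp of one of its start sites, and peaks were ranked within each list from the strongest by −log10 q. The median summit rested on 18 to 46 fragments over a local background of 3.53 to 15.8. Because a longer list opens more genes, counts are given for the whole list and for the strongest 10509 peaks, the length of the shortest list. A gene with no listed peak is called not listed, since a peak below the threshold of the caller cannot be seen.

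The promoters of 6 Osi and Cpr genes on which the results turn are shown first, 5′ to 3′, from 250 bases before to 50 after the start site. They are RefSeq reference sequence of dm6, all on the plus strand of chromosome arm 3R, with TATAAA and the Grh motif AACTGGTT in capitals. *Osi6* (chr3R:6234458-6234757) and *Osi7* (chr3R:6248744-6249043) carry late peaks within these 300 bases in both genotypes, and *Osi24* (chr3R:6198561-6198860) was listed late in grhB37/+ only. *Osi3* (chr3R:6215582-6215881) had start-site peaks at ranks 1753 to 4872 in the stage 6 lists, and *Osi12* (chr3R:6278281-6278580) at ranks 4904 to 11460. The *Osi3* summits lay before the printed bases, at 16.63 to 16.68 kb from the start of *Osi24*, with the *Osi3* start at 17.02 kb. The *Osi12* start lies at 79.72 kb. Stage 6 summits at 79.09 to 79.1 kb lay before its printed bases. Those at 79.55 to 79.56 kb, in grhB37/+, grhB37/B37 and grhM-Z-, lay inside them. *Cpr92F* (chr3R:20669321-20669620) was strong at every time.
Osi6: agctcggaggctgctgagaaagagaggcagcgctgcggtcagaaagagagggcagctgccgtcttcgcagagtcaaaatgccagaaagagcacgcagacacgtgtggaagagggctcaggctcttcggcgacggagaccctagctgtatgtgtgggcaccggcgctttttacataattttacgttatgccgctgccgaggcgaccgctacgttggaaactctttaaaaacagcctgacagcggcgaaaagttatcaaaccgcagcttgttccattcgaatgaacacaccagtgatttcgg
Osi7: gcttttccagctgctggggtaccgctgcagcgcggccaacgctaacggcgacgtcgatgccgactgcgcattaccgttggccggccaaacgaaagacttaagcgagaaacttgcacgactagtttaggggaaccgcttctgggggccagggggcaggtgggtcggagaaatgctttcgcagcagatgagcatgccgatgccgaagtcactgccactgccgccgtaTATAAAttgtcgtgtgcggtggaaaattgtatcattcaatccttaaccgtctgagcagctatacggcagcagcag
Osi24: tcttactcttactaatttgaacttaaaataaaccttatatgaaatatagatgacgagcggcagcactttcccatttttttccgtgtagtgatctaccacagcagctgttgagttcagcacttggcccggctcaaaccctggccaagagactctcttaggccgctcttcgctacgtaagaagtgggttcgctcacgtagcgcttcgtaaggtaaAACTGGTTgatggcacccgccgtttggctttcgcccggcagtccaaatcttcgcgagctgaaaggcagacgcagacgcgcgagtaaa
Osi3: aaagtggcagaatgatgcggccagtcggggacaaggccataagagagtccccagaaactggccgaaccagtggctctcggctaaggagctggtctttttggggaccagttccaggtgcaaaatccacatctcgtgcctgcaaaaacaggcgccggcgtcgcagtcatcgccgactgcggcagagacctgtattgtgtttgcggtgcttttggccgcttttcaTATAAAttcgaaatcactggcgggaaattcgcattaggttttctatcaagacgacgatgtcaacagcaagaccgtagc
Osi12: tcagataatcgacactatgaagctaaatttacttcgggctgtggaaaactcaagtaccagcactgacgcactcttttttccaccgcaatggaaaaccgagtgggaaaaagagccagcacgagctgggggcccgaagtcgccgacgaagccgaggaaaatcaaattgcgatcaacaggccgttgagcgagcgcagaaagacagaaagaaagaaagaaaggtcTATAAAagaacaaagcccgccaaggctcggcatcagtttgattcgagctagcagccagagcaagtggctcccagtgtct
Cpr92F: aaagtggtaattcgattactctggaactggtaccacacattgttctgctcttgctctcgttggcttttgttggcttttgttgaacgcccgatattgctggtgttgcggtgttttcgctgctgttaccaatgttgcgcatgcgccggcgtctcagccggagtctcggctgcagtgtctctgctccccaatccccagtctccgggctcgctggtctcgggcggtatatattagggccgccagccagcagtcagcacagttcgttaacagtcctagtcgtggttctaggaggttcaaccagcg

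The promoters of the family stood out by a TATA box. TATAAA on the gene's own strand, with its first base 40 to 20 bases before the annotated start, was present in 77 of 144 members (53.5%) and in 1087 of all 13968 promoters (7.78%). The share was 73.3% of 15 Lcp, 71.4% of 7 Ccp84A, 60.9% of 23 Twdl, 48.6% of 70 Cpr and 36.0% of 25 Osi genes. In the sequences above the box began at position -28 of *Osi3*, -25 of *Osi7* and -29 of *Osi12*, counted from the start site as 0. Anywhere in the 300 bases and on either strand, TATAAA was in 71.5% of members and 45.8% of all promoters. The Grh motif in either form was in 2.78% of members and 2.96% of all promoters. AACCGGTT was in 0 of 144 member promoters and in 0.752% of all, and AACTGGTT was in 4 (*Cpr31A*, *Lcp65Ad*, *Osi24* and *Edg91*; 2.78%) and in 2.26% of all, both strands searched.

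Start sites of cuticle genes were rarely among the strong peaks of the early embryo. Any listed peak opened 55 to 115 of the 144 members (38.2% to 79.9%) in the 10 early lists, against 60.1% to 86.7% of all protein-coding genes. Within the strongest 10509 peaks there were 5 to 9 members (3.47% to 6.25%), against 40.9% to 51.1% of all genes. Within the strongest 5000 they were 1 to 4 members, against 26.1% to 34.7% of all genes. The member peaks that were listed were weak, with a median rank of 42.3% to 64.8% of the way down the early lists, compared with 10.8% to 19.0% for all genes. By family, the strongest 10509 held at most 5 of 25 Osi, 4 of 70 Cpr, 2 of 15 Lcp, 2 of 3 Edg, 1 of 23 Twdl, 0 of 7 Ccp84A and 0 of 1 Acp65A genes in any early list. A total of 20 members were listed in all 10 early lists, and 11 were in none of the 12 lists, among them *Osi21*, *Osi22*, *Cpr31A* and *Ccp84Aa*. *Lcp65Ab1* and *Cpr65Ax1* are also among these 11, but only 35.9% and 40.6% of the 100-base stretches around their starts occur once in the genome, and the authors removed reads that mapped more than once. For 133 of the 144 members this share was at least 95%.

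**Figure D1:**
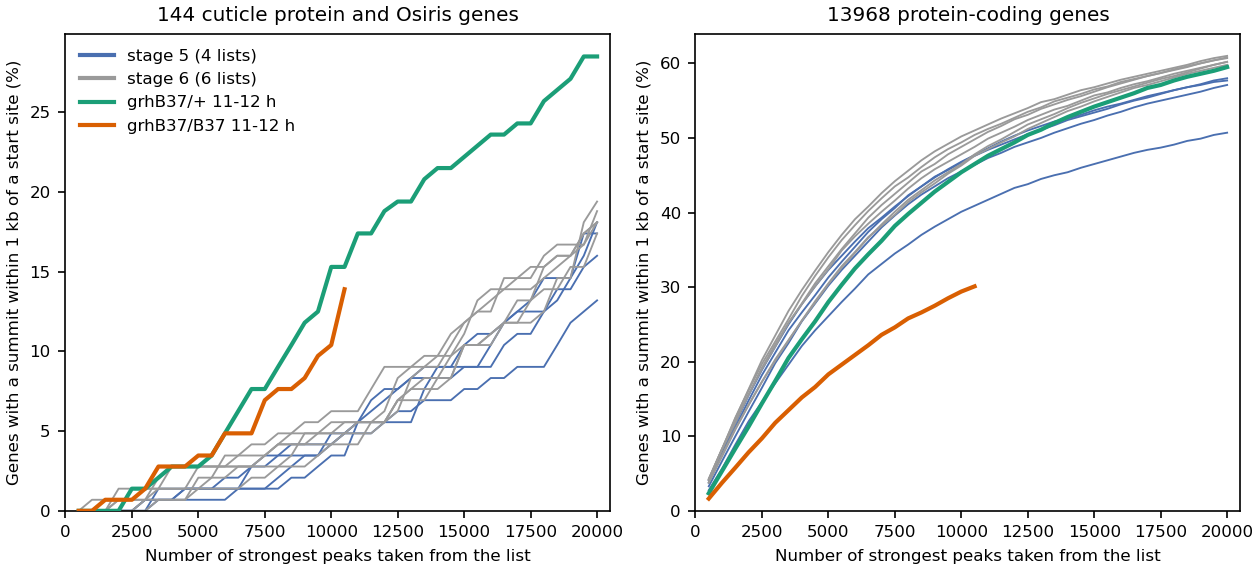
Share of genes (y axis, %) with a summit within 1000 bp of a start site among the strongest peaks of each list (x axis, number of peaks taken), for the 144 members (left) and all 13968 protein-coding genes (right, another y scale), 1 line per list. At 10509 peaks both lists at 11-12 h AEL (15.3% and 13.9% of members) lie above all early lists (3.47% to 6.25%), while for all genes grhB37/B37 lies below them.

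Only a few members broke this pattern. None was among the strongest 5000 peaks in all 10 early lists, and *Cpr92F* and *Osi17* were the only members among the strongest 15000 in all 10. *Cpr92F*, a cuticle protein gene, ranked 3340, 4496, 7563 and 6563 in grhM+, grhM-, grhM+Z+ and grhM-Z- at stage 5. At stage 6 it ranked 3923, 6615, 1530, 928, 2543 and 1562 in grhM+, grhM-, grhB37/+, grhB37/B37, grhM+Z+ and grhM-Z-. At 11-12 h AEL it was the strongest member peak of grhB37/+ at rank 2357, and it ranked 4583 in grhB37/B37. It was thus stronger in the mutant in 3 of the 5 early comparisons and in the siblings in the other 2. *Osi17* ranked between 3363 and 10628 in the early lists, 3963 in late grhB37/+ and 2862 in late grhB37/B37. Other strong early peaks lay between genes. The peaks of *Lcp9* had summits at -470 to -453 bp at the early stages, before its start and also within 1000 bp of the starts of *CG3594* and *egg*, those of *Cpr60D* near *CG30161* and *ND-19*, and those of *Edg78E* near *CG43702*, so they cannot be assigned to the cuticle gene.

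**Figure D2:**
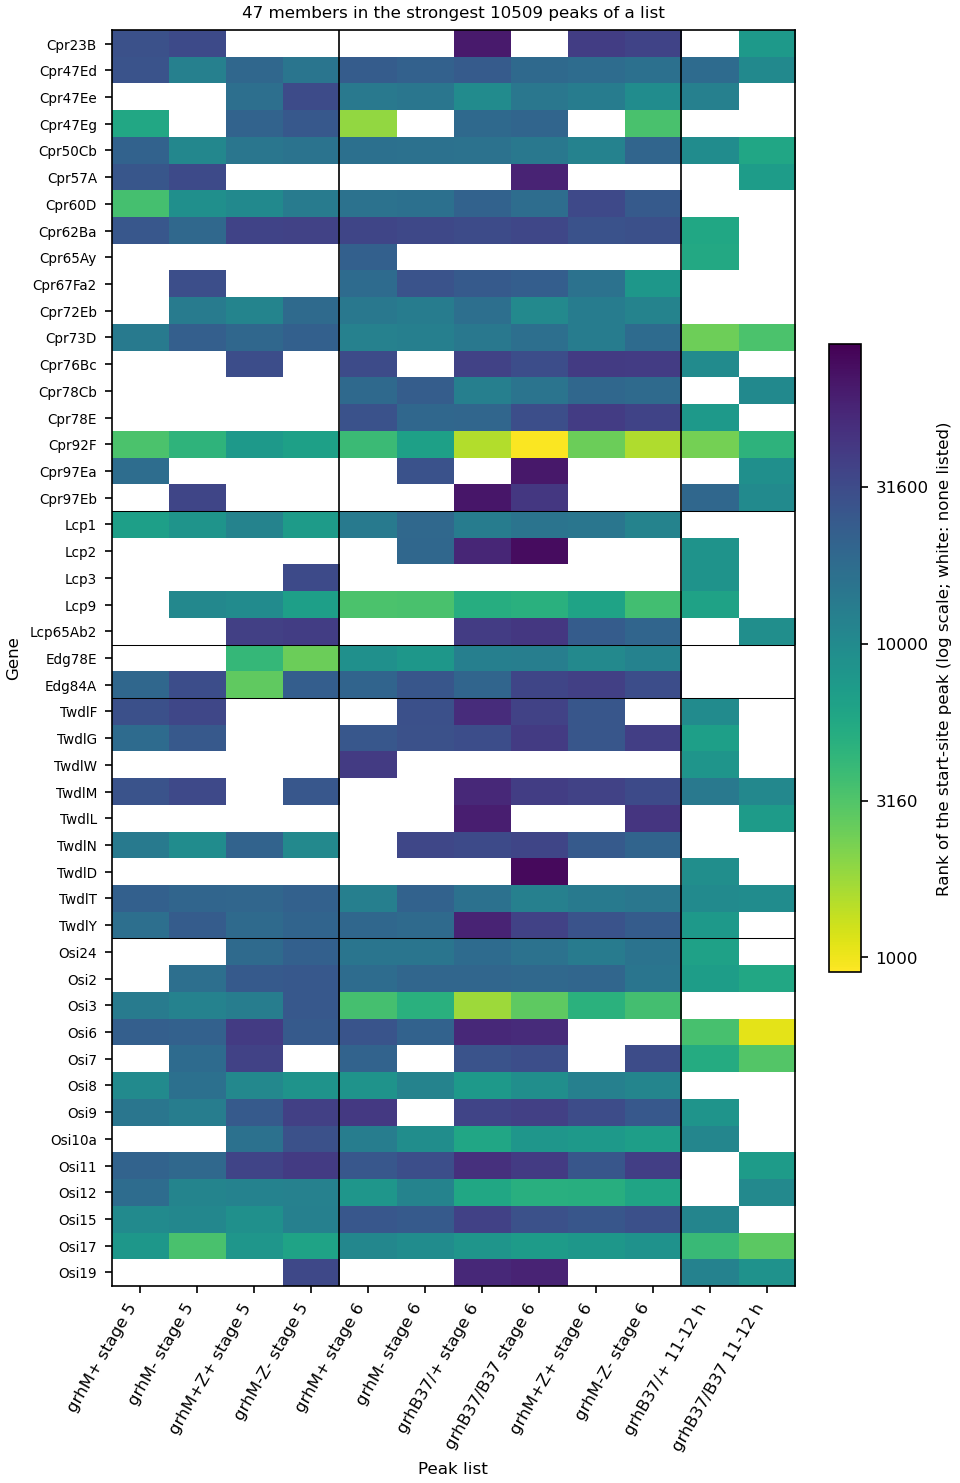
Rank of the start-site peak (colour, log scale) for the 47 of 144 members within the strongest 10509 peaks of at least 1 list (rows, by family) in the 12 lists (columns; black lines separate stage 5, stage 6 and 11-12 h AEL). White cells have no listed peak. *Cpr92F* and *Osi17* are strong early and late, *Osi3* is strong at stage 6 only, and *Osi6* and *Osi7* at 11-12 h AEL only.

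By rank, more cuticle start sites were among the strong peaks at 11-12 h AEL than early. In grhB37/+ 22 members (15.3%) were among the strongest 10509, compared with 5 to 9 in the early lists. The direction turned without ranks. Any listed peak opened 41 members (28.5%) of late grhB37/+, against 55 to 115 early, and at −log10 q of at least 5 there were 22 members in late grhB37/+ and 4 in late grhB37/B37, against an early median of 31. The late lists were also shorter and weaker, with −log10 q at rank 5000 of 10.3 and 4.15, compared with 18.3 to 136 early. Over all genes the share within the strongest 10509 was 46.6%, inside the early range of 40.9% to 51.1%. In grhB37/B37 20 members (13.9%) were open, all within 10509 peaks by construction, against 30.1% of all genes. Only 4 members of grhB37/+ and 5 of grhB37/B37 reached the strongest 5000. By family, the strongest 10509 peaks of late grhB37/+ held 6 of 23 Twdl genes (1 at most early), 6 of 25 Osi (5 at most), 7 of 70 Cpr (4 at most) and 3 of 15 Lcp (2 at most), whereas 0 of 7 Ccp84A and 0 of 3 Edg genes were there.

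The strict change from stage 6, into the strongest 5000 at 11-12 h AEL from outside the strongest 15000, with the same genotype compared at both times, was made by 1 member in grhB37/+ and 3 in grhB37/B37. For all genes this call was made by 3.67% in grhB37/+ and 2.67% in grhB37/B37, so the members (0.694% and 2.08%) did not exceed the background. The 1 member in grhB37/+ was *Osi6* (FBgn0027527, chr3R:6234708-6237181). Its start-site peak ranked 22188, 21443, 40127 and 24511 in the 4 stage 5 lists, 27044, 21078, 53258 and 51443 in the grhM+, grhM-, grhB37/+ and grhB37/B37 lists of stage 6, and was not listed in either stage 6 list of the maternal and zygotic experiment. At 11-12 h AEL it ranked 3468 in grhB37/+ and 1090 in grhB37/B37, the strongest member peak of that list. The early summits lay at -829 to -603 bp from the start, whereas the late ones lay at -218 and -181 bp, inside the promoter printed above. The late peaks had 89 fragments at 2.67-fold enrichment and 68 fragments at 2.95-fold. The late peak was thus present in both genotypes. *Osi7*, its neighbour in the array (FBgn0037414, chr3R:6248994-6251683), ranked 5332 in late grhB37/+ and 3060 in grhB37/B37 with summits at -109 and -88 bp. In the early lists it ranked 18100 at best, with summits 247 to 309 bp inside the gene. Its late rank in grhB37/+ lay just beyond 5000, so that only grhB37/B37 met the rule. *Cpr73D* was the third gain in grhB37/B37, at rank 3318 after 16653 at stage 6, and it ranked 2476 in late grhB37/+ after 14166. Its late summits lay 190 and 356 bp inside the gene and within 1000 bp of a start of *Ogdh*, so this peak too cannot be assigned to 1 gene.

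Taking all 10 early lists together, 19 members (13.2%) were among the strongest 15000 peaks of late grhB37/+ and of none of the early lists, against 7.5% of all genes, a rule chosen after the values were seen. They were *Cpr51A*, *Cpr56F*, *Cpr62Ba*, *Cpr65Ay*, *Cpr67Fb*, *Cpr76Bc*, *Cpr78E*, *Lcp2*, *Lcp3*, *Ccp84Ac*, 6 Twdl genes (*TwdlF*, *TwdlG*, *TwdlW*, *TwdlM*, *TwdlD* and *TwdlY*), *Osi6*, *Osi7* and *Osi19*. A gene in the strongest 15000 of any early list cannot meet this rule. Each early list held 7.64% to 11.8% of members there, against 46.5% to 56.8% of all genes. A larger share of members could thus meet the rule, and 13.2% and 7.5% do not show an excess of members. The reverse, strongest 15000 in all 10 early lists and not in late grhB37/+, held for 5.77% of all genes, but only *Osi17* and *Cpr92F* could have met it, and 0 members did, so the shares cannot be compared.

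Few members could be lost, since the strongest 5000 at stage 6 held 2 members in grhB37/+ and 4 in grhB37/B37. From there to outside the strongest 15000 at 11-12 h AEL went 1 member in grhB37/+ (*Osi3*) and 2 in grhB37/B37 (*Osi3* and *Lcp9*), while the shares of all genes were 3.09% and 12.9%, with 30.4% and 30.5% of all genes in the strongest 5000 at stage 6. *Osi3* (FBgn0037411, chr3R:6215832-6218199) ranked 3476, 4872, 1753, 2804, 4733 and 3554 in the 6 stage 6 lists in the order given above for *Cpr92F*, and 13196, 11740, 12739 and 25531 in the 4 stage 5 lists. It was not listed in either genotype at 11-12 h AEL. The peak of *Lcp9*, shared with its neighbours, ranked 4861 at stage 6 and was not listed in late grhB37/B37, while in late grhB37/+ it ranked 6381. *Lcp9* lies on 2R, the arm that carries *grh*.

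The comparison of grhB37/B37 with grhB37/+ at 11-12 h AEL asked which cuticle start sites were open with and without zygotic Grh. Both lists held 12 members, grhB37/+ alone held 29 and grhB37/B37 alone held 8. The same calls were made for 30.7% (grhB37/+ only) and 1.02% (grhB37/B37 only) of all genes, compared with 20.1% and 5.56% of members. Of the 20 members listed in grhB37/B37, 12 were also listed in grhB37/+, whereas of the 4205 genes listed in grhB37/B37 96.6% were. In the other direction 12 of 41 members (29.3%) and 48.6% of 8356 genes were shared. The grhB37/+ list is the longer one, so the counts were repeated with its strongest 10509 peaks. Then 14 members were in grhB37/+ and not listed in grhB37/B37, against 18.7% of all genes, and 12 were in grhB37/B37 and not in the strongest 10509 of grhB37/+, against 2.26% of all genes. The member sets of the 2 genotypes thus overlapped by 8 genes, 36.4% of 22 in grhB37/+ and 8 of 20 in grhB37/B37, compared with 59.8% and 92.5% for all genes. Listed member peaks were also weaker, at a median rank 47.9% of the way down the whole grhB37/+ list, against 26.4% for all genes. In grhB37/B37 the median was 70.2%, against 37.4%. The overlap of genes with peaks of like strength was not tested.

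The 29 members listed in grhB37/+ only were 10 Cpr, 4 Lcp, 1 Ccp84A, 7 Twdl and 7 Osi genes. Their peaks ranked from 5538 to 19139 (median 10632), with 23 to 54 fragments at 1.76- to 3.20-fold enrichment, so all 29 lay below the strongest 5000. The first was *Cpr65Ay* at rank 5538, 2.97-fold, which is also near a start of *CG13297*. It was followed by *Cpr62Ba* (5791, 3.01-fold), *Lcp9* (6381) and *Osi24* (6402, 2.65-fold). *TwdlG* ranked 6719, *Cpr78E* 7501, *TwdlY* 7654 (3.20-fold), *TwdlW* 8092 and *Osi9* 8322. *Lcp2* and *Lcp3*, neighbouring larval cuticle protein genes, shared 1 peak at rank 8501. *TwdlD* (9191), *TwdlF* (9746), *Cpr76Bc* (9833) and *Cpr51A* (10632, near *CG30197*) completed the strongest 15. Of the 29, *Lcp2*, *Lcp3*, *Lcp9*, *Cpr47Ee*, *Cpr51A* and *Cpr56F* lie on 2R, the arm that carries *grh*. The part of read mapping there was not tested. *Osi24* is the 1 member with the Grh motif within 50 bp of a late summit. Its AACTGGTT starts at position -37 and the summit in grhB37/+ lay at -34, with 54 fragments over the summit. That motif was within 50 bp of the start-site summit in 1 of 41 members and in 0.802% of all 8356 listed genes of grhB37/+, and AACCGGTT in 0 of 41 and 0.275%. *Osi24* was also listed in all 6 stage 6 lists, at ranks 13208 to 17984, in grhM- (14976), grhB37/B37 (15948) and grhM-Z- (15491) as in their siblings.

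The 8 members listed in grhB37/B37 only were *Cpr57A*, *TwdlL*, *Osi11*, *Cpr23B*, *Cpr97Ea*, *Lcp65Ab2*, *Cpr78Cb* and *Osi12*. Their peaks ranked 7050 to 10283 of 10509 and rested on 27 to 33 fragments at 1.78- to 2.18-fold enrichment, so they were near the threshold of the caller. Only 36.1% of the 100-base stretches around the start of *Lcp65Ab2* occur once in the genome. *Cpr57A* lies on 2R and *Cpr23B* on 2L, and the part of read mapping on chromosome 2 was not tested here either. The position of the summits was compared after the values were seen, and most lay on opposite sides of the start. In grhB37/+ only, 25 of 29 summits lay before the start site (median -318 bp), against 59.1% of all genes listed in grhB37/+ only. In grhB37/B37 only, 1 of 8 lay before it, and the median was 211 bp inside the gene, against 30.8% and 378 bp for the 143 genes of that kind.

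Of the 12 members listed in both genotypes, 11 had the lower fold enrichment in grhB37/B37. The median log2 ratio of grhB37/B37 to grhB37/+ was -0.25 for these 12 and -0.46 for all 4062 genes listed in both, of which 6.03% were higher in grhB37/B37. *Osi6* was the 1 member with the higher value in grhB37/B37, by 0.14 on the log2 scale. *Cpr92F* had 4.01-fold enrichment in grhB37/+ and 2.38-fold in grhB37/B37, and *Cpr73D* 3.46- and 2.58-fold. *Osi7* had 2.55- and 2.43-fold, and *Cpr97Eb* 1.83- and 1.80-fold. With 1 sample for each genotype, none of these differences has an error.

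**Figure D3:**
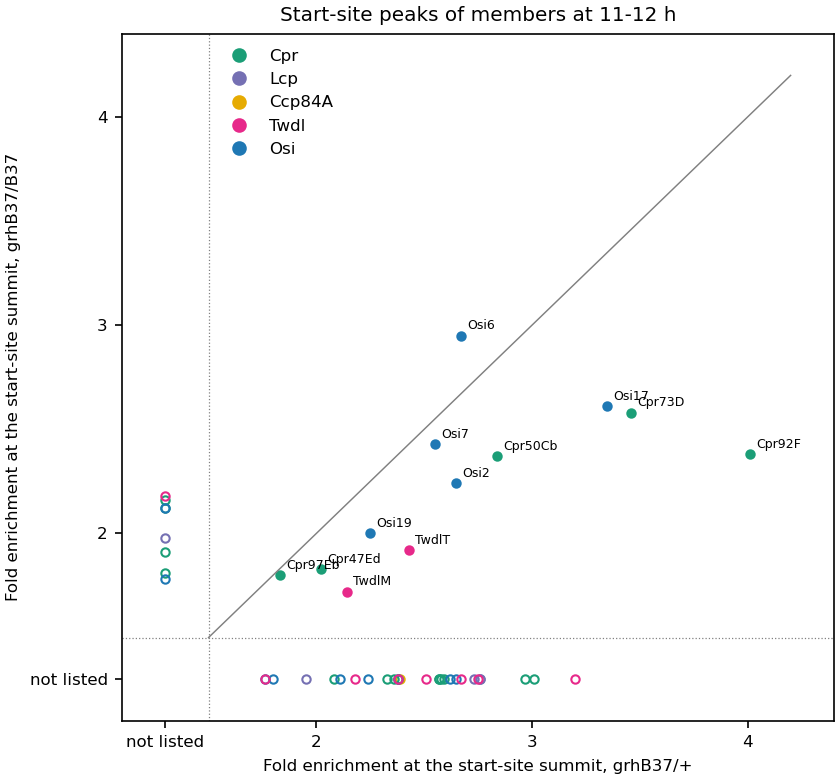
Fold enrichment at the start-site summit at 11-12 h AEL in grhB37/+ (x axis) and grhB37/B37 (y axis) for the 49 members listed in at least 1 genotype, coloured by family. Open points beyond the dotted lines are listed in 1 genotype only, 29 along the bottom and 8 on the left; the grey line marks equal values, and of the 12 filled points *Osi6* is the 1 above it.

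The members are clustered in the genome. With neighbouring starts within 20 kb, 108 of the 144 lay in 16 clusters of at least 3 members, and 36 lay alone or in pairs. In late grhB37/+ 26.9% of clustered and 33.3% of other members were listed, and in grhB37/B37 11.1% and 22.2%. The Lcp65A cluster on 3L (18 members in 31.8 kb) had 2 members listed in late grhB37/+ and 1 in grhB37/B37, the Twdl cluster on 3R from *TwdlM* to *TwdlD* (12 members in 22.9 kb) 3 and 2, and the cluster of *Edg84A* and the Ccp84A genes (8 members in 21.6 kb) 1 and 0. The 8 Cpr49A genes on 2R had 0 in both lists, as did the 4 Cpr64A and the 3 Cpr65E genes on 3L.

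The largest cluster was the Osi array on 3R, with 21 members from *Osi24* to *Osi20* (chr3R:6197811-6341095 with 1 kb on either side, 143.0 kb). It held 2 to 3 of the strongest 10509 peaks in the 4 stage 5 lists, 5 to 9 in the 6 stage 6 lists, 12 in late grhB37/+ and 13 in late grhB37/B37. Per 100 kb this is 1.40 to 2.09 peaks at stage 5, 3.49 to 6.28 at stage 6, and 8.37 and 9.07 late, compared with 7.35 to 7.81 over all chromosome arms. Few of the late peaks lay where the same genotype had a strong peak at stage 6. Of the 12 late peaks of grhB37/+, 1 had a summit within 250 bp of one of the 7 grhB37/+ peaks of stage 6 (8.33%), against 42.2% of all 10509 peaks. In grhB37/B37 it was 2 of 13 (15.4%), against 28.9%. Other early lists held a counterpart in places, such as the late grhB37/B37 peak at 116.43 kb from the start of *Osi24*, near *Osi17*, with peaks at 116.41 to 116.54 kb in all 4 stage 5 lists. Between the genotypes, 5 of the 12 grhB37/+ peaks had a grhB37/B37 counterpart at 11-12 h AEL (41.7%, against 56.6% over all peaks), and all 7 had one at stage 6 (against 90.4%). The shared late peaks included the *Osi6* and *Osi7* promoters and 2 peaks away from any Osi start, 4.44 and 87.91 kb from the start of *Osi24*. These ranked 5490 and 4607 in grhB37/+, and 2036 and 1969 in grhB37/B37. At stage 6 the peaks held by all 6 lists were that of *Osi3* and one away from Osi starts, 26.8 kb from the start of *Osi24*, which ranked 3928 to 8865.

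**Figure D4:**
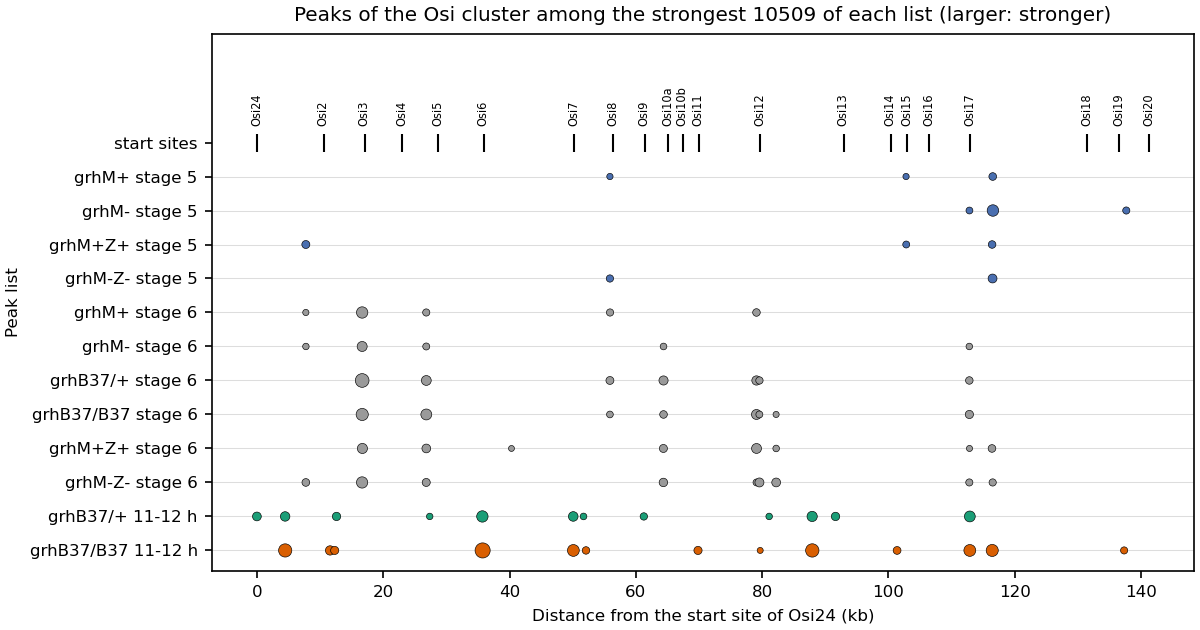
Peaks of the Osi array among the strongest 10509 of each list, by distance of the strongest summit from the start of *Osi24* (x axis, kb), 1 row per list with the 21 start sites on top; larger points are stronger. Within this fixed number of ranked peaks they become more numerous from stage 5 (2 to 3) to stage 6 (5 to 9) and 11-12 h AEL (12 and 13). The late lists also differ in library type. Of the late peaks, 1 of 12 and 2 of 13 lie within 250 bp of a stage 6 peak of the same genotype.

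The embryos of the maternal and zygotic experiment, listed 1 by 1, allowed a test of the stages and of the genotypes. Single embryos had 24961 to 32722 peaks at stage 5 and 30660 to 36749 at stage 6, and opened 28 to 48 members at stage 5 and 46 to 58 at stage 6. No gene passed an adjusted p of 0.05 in the exact permutation test between stages (0.0% of genes called), and 200 arrangements cannot give a p below 0.005, which after adjustment was 0.0834. Without adjustment, p was under 0.05 with a higher percentile at stage 6 for 16 of 144 members (11.1%, against 2020 or 14.5% of all genes) and with a lower one for 2 (1.39%, against 620 or 4.44%). The 16 were *Osi3*, *Osi4*, *Osi10a*, *Osi12*, *Osi13*, *Osi14* and *Osi24* of the Osi array, *TwdlH*, *TwdlR*, *TwdlQ* and *TwdlT*, and *Cpr67Fa2*, *Cpr73D*, *Cpr78Cb*, *Cpr92F* and *Lcp9*. The lists of stage 6 embryos were on the whole longer, and the part of list length in these differences was not tested.

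The Osi genes named here, apart from *Osi6*, were picked by their unadjusted p in this same test. Other genes of the array went either way at stage 6, from -25.3 percentile points for *Osi15* and -15.9 for *Osi18* to 15.7 for *Osi8* and 25.3 for *Osi2*. *Osi4* was listed in 0 of 6 embryos at stage 5 and in all 5 at stage 6, at ranks 18540 and 16062 in grhM+Z+ and 13056, 12301 and 17137 in grhM-Z- (exact permutation p = 0.005, adjusted p = 0.0834). It was also in none of the 4 stage 5 lists and in all 6 stage 6 lists, though never above rank 14786. *Osi3* ranked 11118, 29505 and 9797 in grhM+Z+ and 21411, 20717 and 21463 in grhM-Z- at stage 5. At stage 6 it ranked 3920 and 5968 in grhM+Z+ and 2205, 3960 and 3386 in grhM-Z-, so that all stage 6 embryos lay above all stage 5 embryos (exact permutation p = 0.015, adjusted p = 0.136). The mean percentile of *Osi3* was 53.2 points higher at stage 6. *Osi12* was listed in all 11 embryos, at 8436 to 19905 at stage 5 and 4148 to 9375 at stage 6, and these ranges did not overlap within either genotype. *Osi13* was listed in 0 of 6 and 4 of 5 embryos, and *Osi6*, the late gain, in 4 of 6 embryos at stage 5 and 0 of 5 at stage 6. Outside the array, *Cpr67Fa2* and *Cpr78Cb* were listed in 0 of 6 stage 5 and all 5 stage 6 embryos. *Cpr92F* ranked 5016 to 12234 at stage 5 and 712 to 3855 at stage 6, with no overlap. In the grhM+ and grhM- lists given above it went the other way, with the weaker rank at stage 6. The 2 members with the lower percentile at stage 6 were *TwdlN* and *Edg78E*, and the *Edg78E* peak is the one shared with *CG43702*. In grhM+ and grhM- *Edg78E* went the other way, not listed at stage 5 and listed at stage 6.

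**Figure D5:**
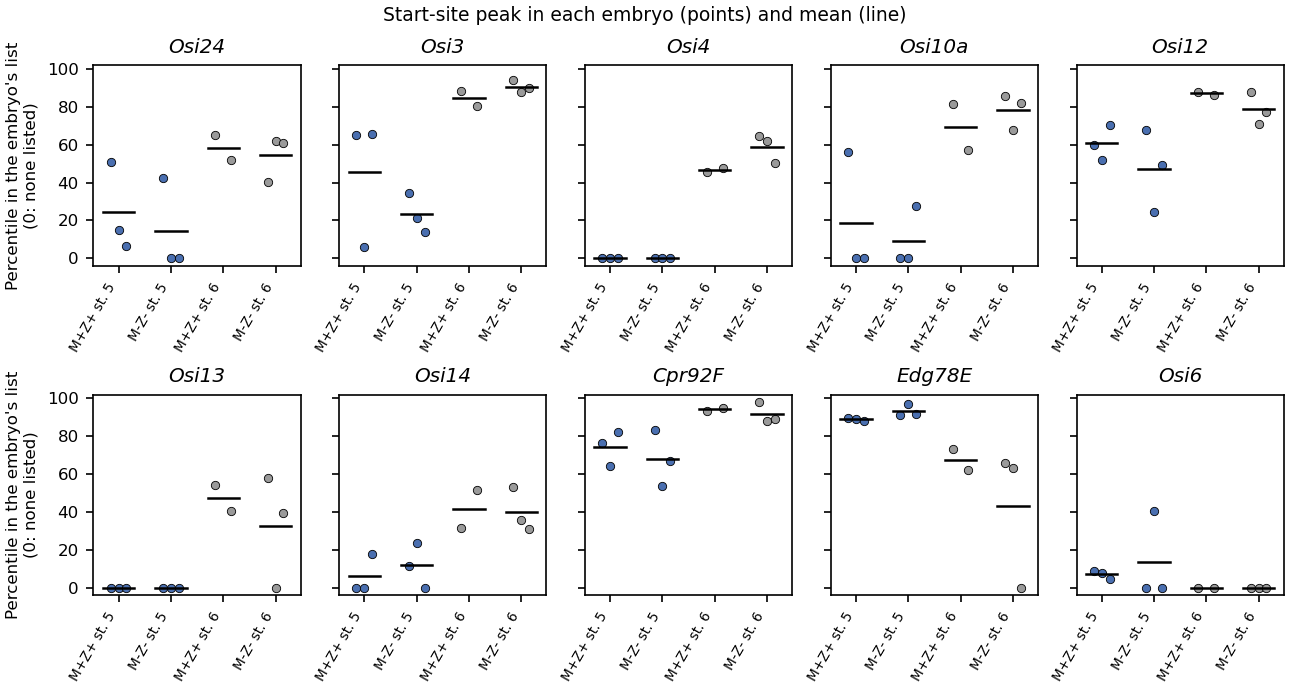
Percentile of the strongest start-site peak within each embryo's list (y axis, 0 where none is listed) for 10 members in the 11 embryos listed apart, blue for stage 5 and grey for stage 6, with the mean of 3 embryos (2 for grhM+Z+ at stage 6) as a line. *Osi4* and *Osi13* are at 0 in all stage 5 embryos, *Edg78E* is higher at stage 5, and *Osi6* is listed only in 4 stage 5 embryos. All but *Osi6* were picked by an unadjusted exact permutation p under 0.05 between stages.

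Between grhM-Z- and grhM+Z+ embryos of the same stage, no gene passed an adjusted p of 0.05 by exact permutation (0.0% of genes called). Without adjustment p was under 0.05 for 1 member with the higher percentile in grhM-Z- (*Lcp1*, by 17.2 points, exact permutation p = 0.03) and 1 with the lower (*Cpr47Ec*, p = 0.02 by the same exact permutation). Over all genes there were 229 (1.64%) and 276 (1.98%). *Lcp1* and *Cpr47Ec* lie on 2R, the arm that carries *grh*, and the part of read mapping on the mutant chromosome was not tested. For the 16 members higher at stage 6, the exact permutation p between genotypes was 0.155 or more for each. A p above the threshold does not show that the genotypes are alike in these embryos.

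Among other genes of cuticle formation, 38 were found of 39 listed symbols. They include *grh* itself and the transcription factor genes *ovo*, *sob*, *drm* and *vvl*, all within the strongest 10509 peaks of every list. Of the 38, 14 to 18 were in the strongest 10509 peaks of an early list, 30 in late grhB37/+ and 27 in late grhB37/B37, where 46.6% and 30.1% of all genes were. The strict gain from stage 6 in grhB37/+ was made by 7 (3.67% of all genes), namely *reb*, which is needed for chitin deposition, *verm*, a chitin deacetylase, *obst-B*, a chitin-binding protein, *Cht2*, a chitinase, *mey* and *nyo*, which encode zona pellucida domain proteins of the apical surface, and *ple*, tyrosine hydroxylase. In grhB37/B37 *reb*, *obst-B*, *Cht2*, *nyo* and *ple* made it as well, with *Cda4* (6 of 38, against 2.67% of all genes). The strict loss was made by 0 of 38 in grhB37/+ and by *rtv* and *Cht10*, a chitinase, in grhB37/B37 (3.09% and 12.9% of all genes). *Cht10* was listed in neither late list. It ranked 6267 in grhB37/+ and 4735 in grhB37/B37 at stage 6, so only the latter met the rule. *ple*, a known Grh target, ranked 2682 in late grhB37/+ and 2822 in grhB37/B37 and 31685 to 80156 in the 6 early lists that held it, whereas *Ddc*, dopa decarboxylase, was listed in neither late list. Listed in late grhB37/+ only were *knk*, *rtv*, *Cda5*, *snsl*, *e* and *t* (6 of 38, against 30.7% of all genes), and 0 in grhB37/B37 only (1.02%). *knk* and *rtv*, which organise chitin, ranked 4037 and 2043 in late grhB37/+, and *rtv* was among the strongest 5000 in all 10 early lists. *stw* ranked 957 in late grhB37/+ and 7105 in grhB37/B37. *Cda5*, *snsl* and *Cht10* lie on 2L and *stw* on 2R, both arms of chromosome 2, where the part of read mapping was not tested. The start-site peak of *grh* itself ranked 1962 and 2290 and thus gives no check of the genotype.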

How the data were processed

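ATAC-seq measures DNA that the Tn5 transposase can reach. Before deposition the authors had trimmed adapters (Trimmomatic 0.36), aligned the reads to dm6 by Bowtie2, discarded those with several matches, and run MACS2 with a q-value limit of 0.05. In the deposited lists each summit has a score, the fold enrichment (a ratio of the pileup to the local background), the −log10 p and the −log10 q. Where a peak has several summits, they were joined, and overlapping peaks of the embryos of 1 condition were merged. Peaks were then ranked within each list by −log10 q, since its values depend on depth and are not comparable between lists. The fragments at a summit were solved from the deposited fold enrichment and −log10 p, read as a Poisson tail, and 91.35% to 99.98% of summits of a list returned the deposited −log10 p within 0.01.

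Start sites were those of all transcripts in the Ensembl annotation BDGP6.54, which has dm6 coordinates. A gene was open where a summit lay within 1000 bp of a start site. In 6 lists the replicates of a condition are pooled, and at 11-12 h AEL 1 sample stands for each genotype, so no test was possible there. In the 11 embryos listed apart, each gene's value was the percentile of its strongest start-site peak (0 if none), tested by exact two-sided permutation of stage within genotype, or of genotype within stage (200 arrangements each). The p-values were adjusted by the Benjamini-Hochberg method over 13968 genes at a threshold of 0.05. The test was run on simulated embryos with 200 changed genes, all of middle percentile. Changes in genes that are not listed in many embryos, as many members are, were not simulated. The run is thus no check of the test for such genes. The analysis used Python 3.11.15, NumPy 2.4.6, pandas 2.3.3 and SciPy 1.17.1. The members, the gene lists and the rules were chosen with earlier results of these data known. Genes were named if they were gained or lost between stage 6 and 11-12 h AEL, strong in all 10 early lists, listed at 11-12 h AEL in 1 genotype only (the 15 strongest in grhB37/+ and up to 10 of the reverse), or past the test across embryos. Comparisons at the length of the shortest list, the members open at 11-12 h AEL but in no early list, the summits shared within 250 bp, the side of the start on which late summits lie and the position of the TATA box were added after the values were seen, as were the names of members with an unadjusted p under 0.05. Read counts and the ChIP-seq data were not used here.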

Additional observations from a re-analysis of the deposited data

How the results depend on the processing

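The median number of members open in the 10 early lists was 68. It was 43.5 with summits within 500 bp, 31 with −log10 q of at least 5, 7 with the strongest 10509 peaks and 0 with the strongest 2000. In late grhB37/+ the 41 open members became 71 within 2 kb, 22 at −log10 q of at least 5, 22 with 10509 peaks and 0 with the strongest 2000. In late grhB37/B37 the 20 became 32, 4 and 1 under 2 kb, −log10 q of at least 5 and the strongest 2000. The 29 members in grhB37/+ only became 18 within 500 bp, 47 within 2 kb, 18 at −log10 q of at least 5, 14 with 10509 peaks and 0 with rank limits of 2000 and 5000, and the 8 in grhB37/B37 only became 0 under both −log10 q of at least 5 and those limits. The gain in grhB37/+ of 1 member became 2 within 2 kb, 4 with any listed peak and 0 with limits of 2000 and 5000, and that in grhB37/B37 of 3 became 1 with those limits. Each other alternative for these counts (the 5′ end of the gene alone, the strongest summit alone, the addition of Twdlalpha and Twdlbeta, and leaving out members whose peak is shared with a gene outside the family, among others) stayed within 1.5 times. Ranking by fold enrichment cannot change whether a peak is listed and was run for gains and embryos only. In the embryo tests the number of genes past the threshold was 0 under each setting run. On leaving out each embryo in turn it ranged from 0 to 0, with 13 to 20 members at an unadjusted p under 0.05 between stages and 0 to 2 between genotypes, and within 500 bp it was 11 members between stages. With 1 embryo left out, 80 to 120 arrangements remained, and the smallest exact permutation p was 0.01 to 0.0167. After adjustment the smallest between stages was 0.106 to 0.162. The 0 on leaving out embryos is thus no check of stability. Embryos were numbered by the order of their library names. No paired analysis was possible because the embryo lists carry library names without the replicate numbers of the labels. A gap of 50 kb gave 17 clusters in place of 16.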

Other observations

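*Edg84A* and *Edg78E*, named for their dependence on ecdysone, had their strongest peaks at stage 5, in embryos of the maternal and zygotic experiment. *Edg84A* ranked 2771 in grhM+Z+ at stage 5 and 19451 to 37567 in the other 9 early lists. The strong rank came from 1 embryo, since a start-site peak was listed in 2 of the 3 embryos, at ranks 1684 and 17946. Its summit lay at -987 bp from the start, just inside the window. *Edg78E* ranked 4218 and 2514 in grhM+Z+ and grhM-Z- at stage 5, was not listed in grhM+ or grhM- at stage 5, and ranked 7915 to 12448 in the 6 stage 6 lists. Neither was listed at 11-12 h AEL, and *Edg91* was listed in 2 early lists, at rank 29643 and 48928.

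*TwdlH* and *TwdlR* share most of their peaks, at ranks 14991 and 14605 in grhB37/+ and grhB37/B37 at stage 6, so that these neighbours are 1 observation there. In late grhB37/+ *TwdlH* was listed at rank 14505 and *TwdlR* was not.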
